A study of Homo sapiens with 5 samples.

Results

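Oxidative phosphorylation genes are those of the 4 respiratory complexes and of ATP synthase (complex V), which together turn the energy of reduced cofactors into ATP in the inner mitochondrial membrane. They were described in KGN cells, a line established from a human tumour of granulosa cells. Granulosa cells are the follicle cells that bind follicle-stimulating hormone and make oestrogen. A protein-coding gene was taken as a member by its name: the families NDUFA, NDUFB, NDUFC, NDUFS and NDUFV of complex I without the NDUFAF assembly factors, SDHA to SDHD, names that start with UQCR or ATP5, the COX families 4I, 5, 6, 7 and 8, and the mitochondrial MT-ND, MT-CO, MT-CYB and MT-ATP genes. Of 19973 protein-coding names in the table, 102 met this rule. A scaled count is an estimated count brought to the common library size by a TMM factor. The minimum of a mean of 20 scaled counts over the 5 libraries left 94 members, 81 encoded in the nucleus and 13 in the mitochondrial genome, among 13900 protein-coding genes that met the same minimum.

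The 5 groups of KGN cells were treated for 24 h in medium with charcoal-stripped serum and 100 nmol/L androstenedione, the substrate of aromatase, so the control cells carried it too. FSH cells received 100 ng/mL of the hormone, which raises cAMP in cells that have its receptor. FSK cells received forskolin, which activates adenylate cyclase. SC79 cells received 4 µg/mL of an AKT activator, and PMA cells received a phorbol ester that activates protein kinase C. The dose unit of the last agent and of forskolin is in conflict: the sample labels state 10 mmol/L for forskolin and 0.1 mmol/L for PMA, whereas the protocol prints a symbol-font sign, which would read as micro, before mol. Control cells received the ethanol vehicle per the protocol, while their label gives none as the treatment. Each group is 1 library of poly(A) RNA. Equal parts of 90 ng from 3 cultures, grown in separate weeks, were pooled for it, so there is no replicate error, no test was possible between groups, and no difference below has a replicate check. All 4 comparisons with control share the same control library. Library totals ran from 50253100 estimated counts in the SC79 library to 58849700 in the control library. In bulk RNA, fewer cells of a type and less RNA per cell cannot be told apart.

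Of 14 granulosa markers, 13 were measured, and WT1 was near 0. Their summed scaled counts were 33958 in FSH, 70525 in FSK, 34312 in SC79, 27789 in PMA and 33581 in control cells. The defining markers CD3E of T cells and DAZL of oocytes were at 0 in all 5 libraries, and CYP17A1, INSL3 and LHCGR of theca cells were under the minimum. Of 4 immune markers 2 were measured, and their sum was 2221 in PMA and 833 in control cells, mostly from CD68. Of 4 endothelial markers 3 were measured, with a sum of 992 in PMA and 346 in control cells. Epithelial markers (2 of 3 measured, summing to between 3571 and 5257), oocyte markers (1 of 4, between 30.5 and 45.0) and theca and stroma markers (3 of 6) completed the check. The last sum was 309556 in PMA and 788398 in control cells, most of it COL1A1. The part of these marker differences in the values below was not tested.

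Complex I passes electrons from NADH to ubiquinone, complex II from succinate, complex III from ubiquinol to cytochrome c, and complex IV from cytochrome c to oxygen. Complexes I, III and IV pump protons, and ATP synthase uses their return. The mitochondrial genome encodes a few hydrophobic core subunits, made from long transcripts that are cut at the tRNAs between them, while all other subunits are imported. In steroid-making cells the same membrane also houses CYP11A1, the enzyme that cuts the cholesterol side chain.

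The ends of 2 short mitochondrial genes, MT-ATP8 and MT-ND4L, overlap the start of a longer gene. MT-ATP6 also ends on base 9207, where MT-CO3 starts. The part of the shared bases in the values below was not tested. MT-ATP8 is 207 bases long and its last 46 bases are also the first bases of MT-ATP6. MT-ND4L is 297 bases long and shares its last 7 bases with the start of MT-ND4. The 3′ ends of the shorter genes are shown on the plus strand of GRCh38 from GENCODE release 29, at chrM:8487-8572 and chrM:10720-10766, with the shared bases in capitals.
MT-ATP8: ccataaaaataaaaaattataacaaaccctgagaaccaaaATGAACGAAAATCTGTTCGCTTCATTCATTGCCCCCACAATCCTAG
MT-ND4L: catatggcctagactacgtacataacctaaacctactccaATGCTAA

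The 8 names under the minimum were mostly tissue isoforms. ATP5EP2, COX4I2, the lung isoform of subunit 4, and COX7B2 were at 0 in all 5 libraries. Mean scaled counts were 0.198 for COX8C, 0.811 for COX6A2, the muscle isoform of subunit 6A, 5.35 for COX7A1, the muscle isoform of subunit 7A, and 5.80 for ATP5L2. NDUFC2-KCTD14, a read-through of 2 genes, lay just outside with a mean of 19.9. Just inside lay UQCRHL, COX6B2 and NDUFA4L2, with 14.5 to 35.1, 20.1 to 84.5 and 12.6 to 46.8 scaled counts. For 91 members, 78 of them nuclear, the higher library of a comparison reached 100 scaled counts, the minimum for counting a gene past a fold.

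The mitochondrial genes were the most abundant members. Their median level over the 5 libraries was 39152 scaled counts per kb of transcript, against 3096 for the nuclear members, a 12.6-fold difference. MT-CO1, the catalytic subunit of complex IV, led with a mean level of 167218 scaled counts per kb, followed by MT-CO2 with 109827, MT-CO3 with 70988 and MT-ATP6 with 67392. MT-ND4 had a level of 56786, MT-ND6 of 40424, MT-CYB of 39152 and MT-ND5 of 35758 scaled counts per kb. MT-ND3 had 27679.7, MT-ATP8 23761, MT-ND1 20081, MT-ND2 19512 and MT-ND4L 10007 scaled counts per kb. The ranges over the 5 libraries overlapped between MT-CO3 and MT-ATP6, between MT-ND6 and MT-CYB, between MT-CYB and MT-ND5, and between each neighbouring pair in the order MT-ND3, MT-ATP8, MT-ND1 and MT-ND2. The other neighbours in the order did not overlap.

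**Figure D1:**
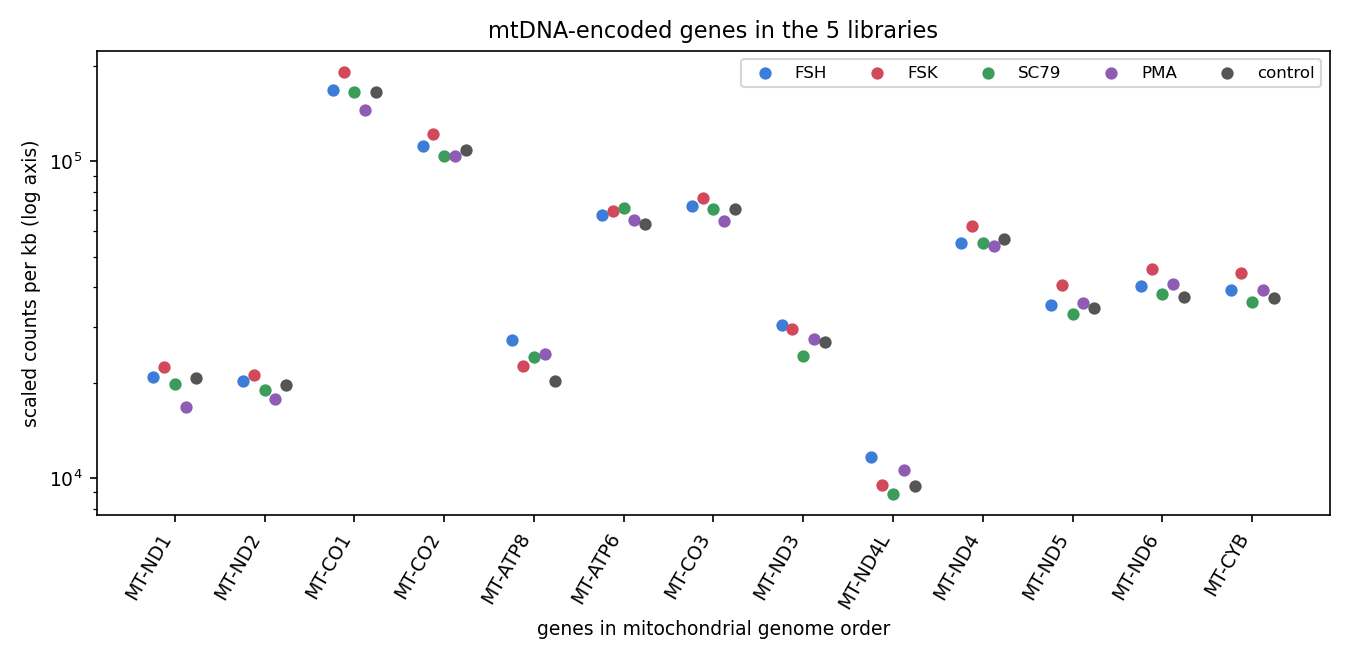
Scaled counts per kb of transcript (log axis) of the 13 mitochondrially encoded genes in genome order, 1 point per library. MT-CO1 lies highest at 145649 to 191527 and MT-ND4L lowest at 8903 to 11671 scaled counts per kb, and the 5 libraries of a gene lie close together.

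Levels per kb of the short genes carry a limit. The protocol gives a mean fragment size of 200 nt, near the whole length of MT-ATP8. MT-ND6 is the 1 gene read from the other strand, and since the counting is not stated to use strand, its reads and those of opposite-strand RNA cannot be told apart. Nuclear copies of mitochondrial DNA also share sequence: only 33.3% of the 31-base words of MT-CO1, 36.3% of MT-ATP6 and 43.1% of MT-ND2 were found in no other gene of the table, against 96.5% for MT-ND3. The copy MTATP6P1 had 4336 to 4745 scaled counts. Adding the copies to their genes left the log2 ratios of MT-CO1 at 0.01 (FSH), 0.21 (FSK), 0.00 (SC79) and -0.19 (PMA).

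Among nuclear members, ATP5B, the catalytic beta subunit of ATP synthase, had the highest level with 13987 scaled counts per kb, followed by COX4I1 with 12087, NDUFS5 with 10614 and ATP5A1, the alpha subunit, with 10544. Median levels per kb were 2297.5 for complex I, 2550.5 for complex II, 3534 for complex III, 3953 for complex IV and 4452 for complex V. Complexes were assigned by gene name throughout, so NDUFA4 and NDUFA4L2 are counted in complex I. NDUFA6 was left out of these levels, since its transcripts with a matched length held 0.209% of its counts.

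Members varied little. The highest library was a median of 1.21-fold over the lowest for the 81 nuclear members and 1.23-fold for the 13 mitochondrial members. Only UQCRHL, COX6B2 and NDUFA4L2, all of them under 100 scaled counts, spanned 1.5-fold or more. COX4I1, the main isoform of subunit 4, was the steadiest at 1.05-fold. It had 8616 scaled counts in FSH, 8954 in FSK, 8745 in SC79, 8560.0 in PMA and 8530.0 in control cells. Under the TMM scaling, FSK cells had the highest level of 48 of 81 nuclear and 9 of 13 mitochondrial members. PMA cells had the lowest level of 40 nuclear and 5 mitochondrial members. The like shares over all genes were not computed, so these counts cannot be read as particular to the members. Over all genes, 52.3% lay within 1.2-fold of control with FSK and 55.4% with PMA, against 94% with FSH and 91% with SC79.

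**Figure D2:**
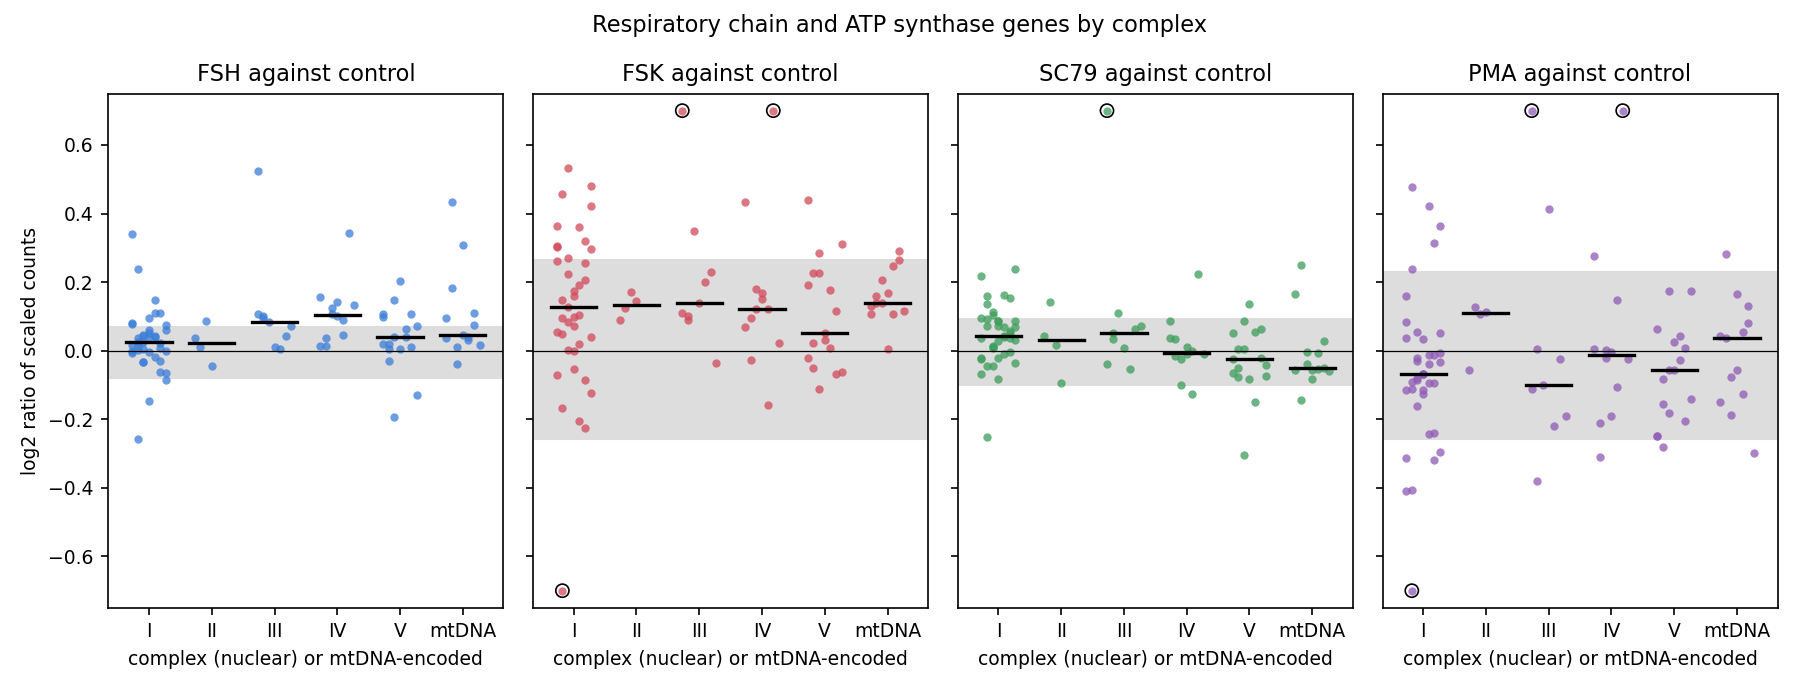
Log2 ratio to control of each member (points) by complex, with the median of each column (black bar) and the middle 50% of all protein-coding genes (grey band). Ringed points lie beyond 0.7 and belong to the low members UQCRHL, COX6B2 and NDUFA4L2; most FSK points lie above 0, and PMA points lie on both sides.

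Forskolin against control asks how the members stand when cAMP is raised directly. Nuclear members lay slightly above control, with a median log2 ratio of 0.12 against 0.01 over all protein-coding genes, and 64 of 81 lay above 0, where 51.5% of all genes did. Higher by 1.2-fold or more were 16 of the 78 countable nuclear members (20.5%), near the 23.9% of all genes. Lower by as much were 0 of 78, where 23.8% of all genes were. None of the 91 countable members lay 1.5-fold or more from control, where 9.22% of all genes lay that much higher and 10.9% that much lower. Within 1.2-fold of control lay 80.2% of members and 52.3% of all genes.

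Of the 16 nuclear members higher with FSK, 11 were subunits of complex I, which holds 38 of the 78 countable nuclear members. They are 28.9% of those 38, near the 23.9% of all genes. NDUFA5, an accessory subunit of the matrix arm, had 1286 scaled counts in FSH, 1807 in FSK, 1261 in SC79, 1298 in PMA and 1249 in control cells. FSK cells stood apart, and the other 4 libraries lay together. The FSK ratio to control was 1.45-fold [1.35 to 1.56], where brackets hold the exact 95% interval of the counting error alone. NDUFB4, of the membrane arm, had 2999.6 in FSH, 3973 in FSK, 2987 in SC79, 2948 in PMA and 2845 scaled counts in control cells, and was 1.40-fold higher with FSK [1.33 to 1.46]. NDUFC2, also of the membrane arm, had 4778 scaled counts in FSK and 3566 in control cells, 1.34-fold [1.28 to 1.40]. NDUFS1, the largest core subunit, which holds iron-sulphur clusters, had 7884 in FSK and 6394 in control cells, 1.23-fold [1.19 to 1.27]. NDUFV2 of the NADH-binding module was 1.21-fold higher [1.14 to 1.28], and NDUFA1, NDUFA3, NDUFA7, NDUFB1, NDUFB3 and NDUFB5 were 1.23-fold to 1.37-fold higher. At the other end, NDUFC1 had 947 scaled counts in FSK and 1108 in control cells (0.855-fold) [0.784 to 0.933], and NDUFB9 had 2125 and 2448 (0.868-fold) [0.819 to 0.920].

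In complex III, UQCRB, a subunit at the ubiquinone site, had 5346 scaled counts in FSK and 4193 in control cells, 1.27-fold [1.22 to 1.33]. UQCRFS1, the Rieske iron-sulphur protein, was 1.17-fold higher [1.11 to 1.24], while the hinge protein UQCRH lay at a log2 ratio of -0.04 and UQCR11 at 0.09. In complex IV, COX7A2 had 2774 scaled counts in FSH, 3358 in FSK, 2644 in SC79, 3014 in PMA and 2488 in control cells. All 4 treated libraries lay above control, FSK most at 1.35-fold [1.28 to 1.42]. COX5B lay at a log2 ratio of 0.18, COX5A at -0.03 and COX8A at -0.16. In ATP synthase, ATP5L, subunit g of the dimer interface, had 4025 in FSK and 2966 in control cells, 1.36-fold [1.29 to 1.42]. ATP5H, subunit d of the stalk, was 1.22-fold higher [1.16 to 1.28], and ATP5S and ATP5F1 lay at log2 ratios of -0.11 and -0.07. The read-through name ATP5J2-PTCD1 was 1.24-fold higher [1.02 to 1.504], with 10.8% of its words its own. Of the 16 genes, 10 had at least 80% of their words to themselves.

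The mitochondrial genes showed the same small shift with FSK. All 13 had a log2 ratio above 0, from 0.01 for MT-ND4L to 0.29 for MT-ND6, with a median of 0.14. Scaled by totals or by DESeq2 size factors, 12 of 13 did. MT-CYB, the core of complex III, had 44612 scaled counts in FSH, 50799 in FSK, 40882 in SC79, 44750 in PMA and 42318 in control cells. The FSK ratio was 1.2-fold [1.19 to 1.22]. MT-ND6 was 1.22-fold higher, MT-ND5 had a log2 ratio of 0.25, and MT-CO1 1.15-fold [1.15 to 1.16]. These intervals are narrow because the counts are high, and they hold no error between cultures. The 13 genes together took 1.43% of counts in FSK cells (exact binomial 95% interval 1.42% to 1.43%) and 1.27% in control cells (1.27% to 1.28%). The share was 1.32% in FSH, 1.28% in SC79 and 1.26% in PMA cells. The 81 nuclear members together took 0.549% in FSK and 0.506% in control cells.

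PMA against control asks how the members stand when protein kinase C is activated. As with FSK, subunits of the same complex lay on opposite sides of control. The nuclear median was -0.05 under the main scaling, against -0.01 over all genes, and 28 of 81 lay above 0, where 49.1% of all genes did. Scaled by library totals the median was 0.01, and 43 of 81 lay above 0. Past 1.2-fold, 6 of 78 nuclear members were higher (7.69%), where 21.1% of all genes were, and 8 were lower (10.3%), where 23.4% of all genes were. Scaling by totals gave 7 higher and 3 lower. None of the 91 countable members lay 1.5-fold or more away, where 8.02% of all genes lay that much higher and 9.27% that much lower. Within 1.2-fold lay 82.4% of members and 55.4% of all genes.

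UQCRC1, a core protein of complex III, had 9215 scaled counts in FSH, 10062 in FSK, 9198 in SC79, 12179.9 in PMA and 9140.1 in control cells. PMA cells stood highest, at 1.33-fold over control [1.30 to 1.37]. Its partner UQCRC2, the second core protein, had 4492 in PMA and 5230.1 in control cells, 0.859-fold [0.826 to 0.893]. The 2 thus lay on opposite sides of control. UQCRQ, a small subunit of the same complex, had 2711 in FSH, 2719 in FSK, 2597 in SC79, 1948 in PMA and 2536 scaled counts in control cells. PMA cells stood lowest, at 0.768-fold [0.725 to 0.814]. UQCR11 lay at 0.01 on the log2 scale.

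In complex I, NDUFB1 had 747 scaled counts in PMA and 536 in control cells, 1.39-fold [1.25 to 1.56], and NDUFA7 had 851 and 635, 1.34-fold [1.21 to 1.49]. NDUFA3 was 1.29-fold [1.1 to 1.51] and NDUFB3 1.24-fold higher [1.14 to 1.35]. For NDUFB1, NDUFA7, NDUFA3 and NDUFB3 control was the lowest of the 5 libraries, and each was also past 1.2-fold higher with FSK. NDUFA10, an accessory subunit, had 3827 in FSH, 3955 in FSK, 3709 in SC79, 2884 in PMA and 3822 scaled counts in control cells, 0.755-fold with PMA [0.719 to 0.791]. The other 4 libraries lay together. NDUFAB1, the mitochondrial acyl carrier protein, was 0.805-fold [0.752 to 0.861], NDUFA8 0.801-fold [0.745 to 0.861] and NDUFA9 0.815-fold [0.771 to 0.863]. NDUFA4, named for complex I but now known as a subunit of complex IV, had 6005 in FSH, 5405 in FSK, 5417 in SC79, 4277 in PMA and 5679 scaled counts in control cells, and was 0.753-fold with PMA [0.724 to 0.783].

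In complex IV, COX7A2 was 1.21-fold higher with PMA [1.15 to 1.28] and COX6B1 had a log2 ratio of 0.15. COX5A had 2015 scaled counts in PMA and 2498 in control cells, 0.807-fold [0.761 to 0.855], and COX7A2L, which takes part in supercomplex formation, was 0.863-fold [0.819 to 0.910]. In ATP synthase, ATP5O, the stalk protein OSCP, had 2786 in PMA and 3382 in control cells, 0.824-fold [0.784 to 0.865]. ATP5A1 had 17212 in PMA and 20469 in control cells, 0.841-fold [0.824 to 0.858]. All 5 subunits of the F1 head lay below control, with a median log2 ratio of -0.08, while 3 of the 5 did when scaled by totals. ATP5H and ATP5J2-PTCD1 lay highest of this complex, at 0.18 and 0.17.

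**Figure D3:**
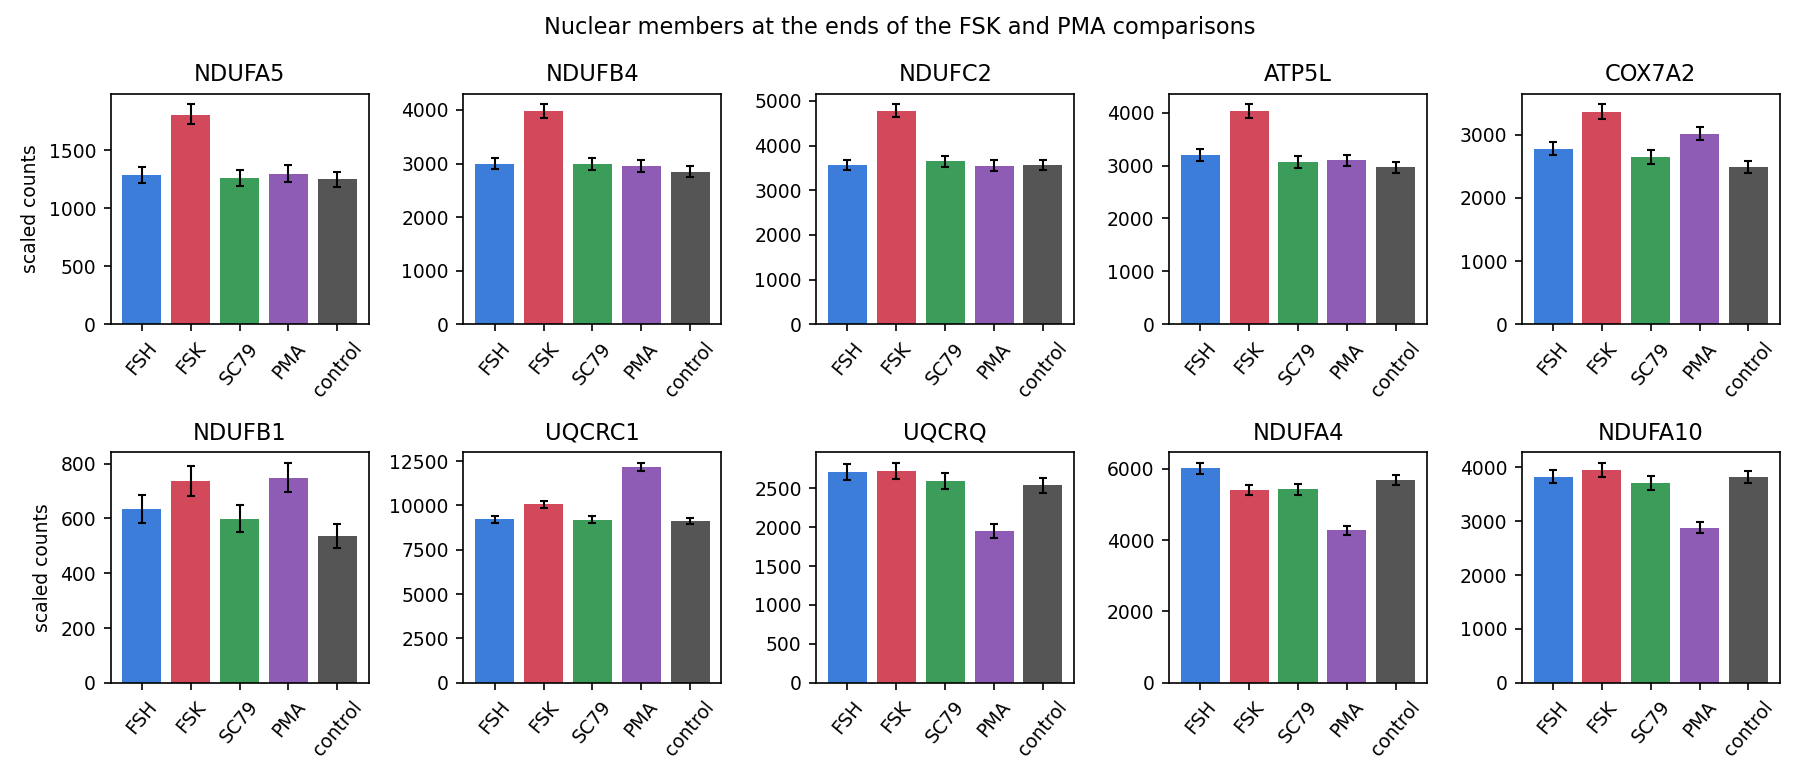
Scaled counts of 10 nuclear members in the 5 libraries (bars, from 0) with exact Poisson 95% intervals of counting error. NDUFA5, NDUFB4, NDUFC2 and ATP5L stand highest in FSK cells, UQCRC1 stands highest in PMA cells at 12179.9, and UQCRQ, NDUFA4 and NDUFA10 stand lowest there.

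The mitochondrial genes had a median log2 ratio of 0.04 with PMA, and 7 of 13 lay above 0. Their summed counts went the other way, at 0.943-fold [0.940 to 0.946], and MT-CO1, which held 34.6% of the sum in PMA and 37.2% in control cells, lay at 0.877-fold [0.872 to 0.882]. MT-ND1 had 19946 in FSH, 21357 in FSK, 18915 in SC79, 16042 in PMA and 19728 scaled counts in control cells. It was 0.813-fold with PMA [0.797 to 0.830] and the lowest ratio of the 13. MT-ATP8 had the highest, 1.21-fold [1.17 to 1.26].

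FSH against control asks how the members stand after the hormone itself. They lay close to control. The nuclear median log2 ratio was 0.04, against -0.01 over all genes, and 65 of 81 nuclear members lay above 0, where 46.9% of all genes did. Past 1.2-fold, 1 of 78 nuclear members was higher, NDUFA1, where 3.4% of all genes were, and 0 were lower, where 2.57% were. None of the 91 countable members lay 1.5-fold or more away, where 0.675% of all genes were that much higher and 0.231% that much lower. Within 1.2-fold lay 96.7% of members and 94% of all genes. NDUFA1, a small membrane-arm subunit encoded on the X chromosome, had 1680.4 in FSH, 1710.3 in FSK, 1545 in SC79, 1407 in PMA and 1328 scaled counts in control cells. Control was the lowest library, and the FSH ratio was 1.27-fold [1.18 to 1.36], with 57.7% of its words its own. NDUFB1 was 1.18-fold higher [1.05 to 1.32], NDUFA12 0.903-fold [0.861 to 0.947] and NDUFA9 0.942-fold [0.892 to 0.994]. All 9 nuclear members of complex III and all 12 of complex IV lay above 0, with medians of 0.08 and 0.10. In complex III, UQCR10 lay at a log2 ratio of 0.11 and UQCR11 at 0.10, with UQCRC1 at 0.01 and UQCRC2 at 0.00. In complex IV, COX7A2 lay at 0.16 and COX7C at 0.14, with COX7A2L and COX4I1 both at 0.01. ATP5I, subunit e of ATP synthase, was 1.15-fold higher [1.07 to 1.24], ATP5H 1.11-fold higher [1.06 to 1.16], and ATP5S, coupling factor B, 0.874-fold [0.779 to 0.981]. ATP5J2-PTCD1 lay at -0.13.

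Nuclear members with a mean transcript length under 700 bases, 25 in all, had a median log2 ratio of 0.09 with FSH. The 188 other protein-coding genes of that length had 0.06. Members between 700 and 1000 bases, and between 1000 and 2000, had 0.01, where other genes of those lengths had 0.01 and 0.00. Members of 2000 bases or more had 0.04, and other genes -0.01. From the shortest class to the longest, members had 0.06, 0.01, 0.02 and -0.04 with SC79. Other genes had 0.04, 0.04, 0.03 and -0.02 in that order. NDUFA6 was placed by transcripts that held 0.209% of its counts. This split was made after the values were seen, and the part of length in the FSH and SC79 values was not tested.

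Of the 13 mitochondrial genes, 2 were at least 1.2-fold higher with FSH (15.4%), where 3.4% of all genes were. Both are the short overlapping ones. Lower by as much were 0, where 2.57% of all genes were. MT-ATP8 had 5657 scaled counts in FSH, 4676 in FSK, 4983 in SC79, 5088 in PMA and 4188 in control cells, 1.35-fold with FSH [1.3 to 1.405]. Control was the lowest of the 5 libraries. MT-ND4L had 3466 in FSH, 2811 in FSK, 2644 in SC79, 3140 in PMA and 2798 in control cells, 1.24-fold with FSH [1.18 to 1.3]. Each of the 2 genes was summed with the partner it overlaps, as printed above. The log2 ratios with FSH were then 0.13 for MT-ATP8 with MT-ATP6 and -0.02 for MT-ND4L with MT-ND4, against 0.43 and 0.31 alone. MT-ATP6 had 43179 and MT-ND4 78322 scaled counts in control cells. The sums thus mostly follow these partners and cannot test the shorter genes. MT-ND3 was 1.13-fold higher. The median of the 13 genes was 0.05.

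SC79 against control asks how the members stand when AKT is activated. The nuclear median log2 ratio was 0.03, against -0.01 over all genes. Of 81 nuclear members 50 lay above 0, where 48% of all genes did. Past 1.2-fold, 0 of 78 were higher, where 4.09% of all genes were, and 1 was lower, where 4.9% were. None of the 91 countable members lay 1.5-fold or more away, where 0.658% of all genes were that much higher and 0.387% that much lower. Within 1.2-fold lay 98.9% of members and 91% of all genes. The gene was ATP5S, with 498 scaled counts in SC79 and 615 in control cells, 0.810-fold [0.718 to 0.912]. NDUFA3 and NDUFA1 lay highest in complex I at 0.24 and 0.22, and NDUFB8 and NDUFA4 lowest at -0.08 and -0.07. UQCRB and UQCRH lay at 0.11 and 0.07 in complex III, with UQCR10 at -0.04 and UQCRC2 at -0.05. COX7A2 and COX4I1 lay at 0.09 and 0.04 in complex IV, with COX7B at -0.10 and COX8A at -0.13. ATP5I and ATP5H lay at 0.14 and 0.09 in complex V, and ATP5E, the epsilon subunit, at -0.15. Of the 13 mitochondrial genes, 10 lay below 0 (8 when scaled by totals), with a median of -0.05. MT-ND3 was lowest at -0.15 and MT-ATP8 highest at 0.25.

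The 4 genes of complex II, which also serve the citric acid cycle and have no mitochondrially encoded partner, stayed within 0.2 of control on the log2 scale in all 4 comparisons. SDHA had 7143 scaled counts in FSH, 7415 in FSK, 7178 in SC79, 6703 in PMA and 6968 in control cells. SDHC had 5559 in FSH, 5897 in FSK, 5294 in SC79, 5636 in PMA and 5234 in control cells. With PMA, SDHB, SDHC and SDHD lay at 0.13, 0.11 and 0.11 and SDHA at -0.06, and all 4 lay above 0 when scaled by totals. With FSK all 4 lay between 0.09 and 0.17.

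For the isoform pairs, the common form was always the abundant one. COX6B1 had a mean level of 4059 scaled counts per kb and COX6B2, the testis form, 23.3. COX6B2 had 25.8 scaled counts in FSH, 84.5 in FSK, 23.7 in SC79, 39.4 in PMA and 20.1 in control cells. FSK cells stood highest, 4.199-fold over control [2.59 to 7.06]. NDUFA4 had a mean level of 2812 per kb and NDUFA4L2, a paralogue known as a target of hypoxia-inducible factor, 30.9. NDUFA4L2 had 39.0 in FSH, 12.6 in FSK, 39.2 in SC79, 21.8 in PMA and 46.8 scaled counts in control cells, 0.268-fold with FSK [0.13 to 0.51] and 0.465-fold with PMA [0.269 to 0.781]. COX6A1 had 8266, COX7A2 4277, COX7A2L 2575 and COX8A 7167 scaled counts per kb. UQCRHL, a near copy of UQCRH, had 14.5 to 35.1 scaled counts, and summing both left UQCRH at a log2 ratio of -0.03 with FSK and -0.18 with PMA.

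PMA against FSK does not use the control library. The nuclear median log2 ratio was -0.16, against -0.01 over all genes, and -0.07 when scaled by totals. Below 0 lay 69 of 81 members, or 55 when scaled by totals, where 50.6% of all genes did. Past 1.2-fold, 23 of 78 nuclear members were lower in PMA cells (29.5%), near the 24.6% of all genes. UQCRC1 was the 1 member higher in PMA cells, at 1.21-fold [1.18 to 1.24], where 24.4% of all genes were. None of the 91 countable members lay 1.5-fold or more apart, where 11.8% of all genes were that much higher in PMA cells and 10.6% that much lower. Within 1.2-fold lay 71.4% of members and 51% of all genes. NDUFAB1 had 1462 scaled counts in PMA and 2179.9 in FSK cells, 0.671-fold [0.627 to 0.717], and NDUFA8 had 1303 and 1878, 0.694-fold [0.646 to 0.745]. NDUFA5, UQCRQ, NDUFA10, UQCRB and ATP5A1 were 0.717-fold to 0.736-fold. All 5 F1 head subunits lay lower in PMA cells, or 4 of 5 when scaled by totals, with a median of -0.31. MT-CO1 had 224591 scaled counts in PMA and 295335 in FSK cells, 0.760-fold [0.756 to 0.765], and MT-ND1 was 0.751-fold [0.736 to 0.767]. The mitochondrial median was -0.19, and -0.11 by totals. Between the other treatments, nuclear and mitochondrial medians were 0.08 and 0.10 for FSK against FSH, -0.02 and -0.10 for SC79 against FSH, and -0.09 and 0.00 for PMA against SC79.

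The authors' deposited table gives a log2 fold change and an adjusted p-value per transcript. Of 354 member transcripts with a mean of at least 20 counts, those with an adjusted p under 0.05 in the authors' deposited table numbered 5 after FSH (1.41%), 11 after FSK (3.11%), 8 after SC79 (2.26%) and 8 after PMA (2.26%). Over all transcripts of protein-coding genes that met the same minimum, the shares in the authors' deposited table were 2.84%, 3.55%, 2.84% and 3.26%. They are given in the same order of treatments. Since each group has 1 library, these p-values measure no spread between cultures. Among member transcripts with at least 200 counts in 1 library and a share at least 10 points from control, the difference was largest for COX6C, a subunit of complex IV. Its transcript ENST00000522934.5, annotated as a target of nonsense-mediated decay, took 69.8% of the gene's counts in FSH, 65.7% in SC79, 60.7% in PMA and 79.9% in control cells. Its protein-coding transcript ENST00000517682.6 took 15.3%, 20.8% and 15.6% in those treatments and 5.14% in control cells. The gene's own log2 ratio lay between -0.02 and 0.13. In the authors' deposited table these 2 transcripts did not pass the adjusted p threshold. At least 1 other COX6C transcript did after FSH, SC79 and PMA. For COX7A2, transcript ENST00000370089.6 took 78.1% in FSH and 76.2% in FSK, against 65.9% in control cells.

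Promoters of 4 genes at the ends of the FSK and PMA comparisons are shown, since subunits of 1 complex lay on opposite sides there. They are RefSeq sequences on GRCh38.p14, from 250 bases before to 50 after the start, read along the gene's own strand. UQCRC1 is at chr3:48609597-48609896 on the minus strand, UQCRQ at chr5:132866392-132866691 on the plus strand, NDUFB4 at chr3:120596086-120596385 on the plus strand and NDUFA10 at chr2:240025293-240025592 on the minus strand. Capitals mark matches to the motifs described after them. The 4 were picked after their matches were seen: NDUFA5 and COX7A2, looked at first, have 3 and 2 listed promoters and no match.
UQCRC1: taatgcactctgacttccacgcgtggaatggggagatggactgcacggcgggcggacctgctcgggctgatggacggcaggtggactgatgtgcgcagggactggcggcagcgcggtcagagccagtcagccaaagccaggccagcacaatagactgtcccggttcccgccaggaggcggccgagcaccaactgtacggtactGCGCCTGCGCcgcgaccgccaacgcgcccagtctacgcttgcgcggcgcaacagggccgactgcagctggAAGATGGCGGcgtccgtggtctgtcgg
UQCRQ: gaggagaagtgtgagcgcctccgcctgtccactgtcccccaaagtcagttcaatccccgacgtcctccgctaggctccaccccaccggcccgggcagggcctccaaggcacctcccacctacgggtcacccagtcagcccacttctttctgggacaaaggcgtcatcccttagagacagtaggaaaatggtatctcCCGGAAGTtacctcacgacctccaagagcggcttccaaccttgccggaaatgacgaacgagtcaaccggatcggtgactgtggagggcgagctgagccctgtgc
NDUFB4: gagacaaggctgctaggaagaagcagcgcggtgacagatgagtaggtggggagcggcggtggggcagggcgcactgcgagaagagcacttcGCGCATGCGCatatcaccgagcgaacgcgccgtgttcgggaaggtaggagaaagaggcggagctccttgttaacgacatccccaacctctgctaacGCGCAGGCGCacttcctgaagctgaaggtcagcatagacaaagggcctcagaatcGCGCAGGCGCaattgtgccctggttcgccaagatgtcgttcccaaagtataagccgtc
NDUFA10: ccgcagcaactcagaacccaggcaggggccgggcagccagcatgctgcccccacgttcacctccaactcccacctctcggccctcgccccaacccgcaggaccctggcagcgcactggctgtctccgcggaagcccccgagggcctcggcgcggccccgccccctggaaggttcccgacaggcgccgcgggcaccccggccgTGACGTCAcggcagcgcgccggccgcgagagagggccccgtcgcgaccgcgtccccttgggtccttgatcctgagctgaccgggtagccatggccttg

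The motifs were searched on both strands: the NRF1 and YY1 consensus motifs, capitalised in the sequences, CCGGAAGT for ETS factors such as GABPA, TCAAGGTCA for oestrogen-related receptors, TGACGTCA for the cAMP response element and TGANTCA for AP-1. The UQCRC1 promoter holds an NRF1 and a YY1 match, UQCRQ an ETS match, NDUFB4 3 NRF1 matches and NDUFA10 a cAMP response element match, and none of these overlap. Promoters matched 66 of 81 nuclear members. The NRF1 letters stood in 15 of 66 (22.7%), against 9.67% of 15843 protein-coding genes. ETS letters stood in 11 (16.7%), against 6.97%, and YY1 letters in 8 (12.1%), against 2.22%. The cAMP response element stood in 5 (7.58%), against 3.00%, the oestrogen-related receptor letters in 1 (1.52%), against 0.335%, and AP-1 letters in 3 (4.55%), against 8.04%. NDUFA10, with the cAMP response element, had a log2 ratio of 0.05 with FSK. Of the others with it, ATP5G1 had 1603 scaled counts in FSK and 1674 in control cells, and ATP5I 1341 and 1312. NDUFB2 had 2472 and 2438, and SDHB 1794 and 1645, in the same order. A first count by symbol alone and 1 promoter per gene matched 64 of 81 members (79.0%) and gave 23.4% against 8.58% for NRF1 and 7.81% against 2.59% for the cAMP response element. A match is a description of letters, not a site.

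Of 11 regulators of respiratory genes, all were measured. Within 1.2-fold of control lay 6 of 9 countable ones with FSK (66.7%, against 52.3% of all genes). With PMA 6 of 10 did (60%, against 55.4%), and with FSH and with SC79 9 of 9 did (against 94% and 91%). The genes named next are those that lay past 1.2-fold with FSK or PMA. PPARGC1A, a coactivator of mitochondrial biogenesis that responds to cAMP, had 26.0 scaled counts in FSH, 96.9 in FSK, 18.0 in SC79, 110 in PMA and 23.9 in control cells. FSK and PMA cells stood apart from the rest, at 4.06-fold [2.61 to 6.56] and 4.61-fold [2.98 to 7.35]. Its partner ESRRA was 1.38-fold higher with PMA [1.29 to 1.47] and 1.01-fold with FSK [0.935 to 1.09]. GABPB1 was 1.36-fold higher with PMA [1.28 to 1.44]. HIF1A was 1.68-fold higher with FSK [1.66 to 1.69], while MYC was 0.667-fold with FSK [0.641 to 0.695] and 0.713-fold with PMA [0.686 to 0.742]. PPRC1 was 0.714-fold with FSK [0.678 to 0.753].

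Genes for expression of the mitochondrial genome had medians below 0 in all 4 comparisons, with members on both sides. The median log2 ratio of 18 genes was -0.05 (FSH), -0.08 (FSK), -0.06 (SC79) and -0.15 (PMA), and 10, 15, 10 and 14 of them lay below 0 in that order. Above 0 lay 8, 3, 8 and 4 of the 18, where 46.9%, 51.5%, 48% and 49.1% of all genes did. Past 1.2-fold, 2, 2, 1 and 5 of the 18 were lower in the same order (11.1%, 11.1%, 5.56% and 27.8%). Of all genes, 2.57%, 23.8%, 4.9% and 23.4% were that much lower. Higher were 0, 0, 1 and 2 (0%, 0%, 5.56% and 11.1%), where 3.4%, 23.9%, 4.09% and 21.1% of all genes were. TFAM, which packages and transcribes the mitochondrial genome, had 2806 scaled counts in FSH, 2568 in FSK, 2842 in SC79, 2434 in PMA and 3076 in control cells. LRPPRC, which stabilises mitochondrial mRNA, had 6958 in PMA and 9397 in control cells, 0.740-fold [0.718 to 0.763]. TFB1M was 1.36-fold higher with PMA [1.17 to 1.58].

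Among 46 assembly factors of the complexes, FSK cells had 10 past 1.2-fold higher (21.7%, near the 23.9% of all genes) and 3 lower (6.52%, where 23.8% of all genes were). PMA cells had 4 higher (8.70%, against 21.1%) and 5 lower (10.9%, against 23.4%). Median log2 ratios of this list were 0.00 (FSH), 0.06 (FSK), 0.03 (SC79) and 0.01 (PMA). COX17, which delivers copper to complex IV, had 590 in FSH, 812 in FSK, 521 in SC79, 734 in PMA and 488 scaled counts in control cells. It was 1.66-fold with FSK [1.49 to 1.86] and 1.51-fold with PMA [1.35 to 1.69]. COX18 was 1.43-fold with FSK [1.31 to 1.56]. UQCC2, needed for complex III, was 0.736-fold with FSK [0.672 to 0.806] and 0.721-fold with PMA [0.658 to 0.788], and ECSIT of complex I was 0.712-fold with PMA [0.649 to 0.781]. Of 78 mitochondrial ribosomal proteins, 11 were past 1.2-fold higher with FSK (14.1%, against 23.9% of all genes) and 2 lower (2.56%, against 23.8%). With PMA 8 were higher (10.3%, against 21.1%) and 9 lower (11.5%, against 23.4%). Their medians were 0.00, 0.03, 0.03 and -0.04 with FSH, FSK, SC79 and PMA. MRPL15 was 2.08-fold with PMA [1.998 to 2.161] and MRPL11 0.580-fold with FSK [0.527 to 0.637].

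**Figure D4:**
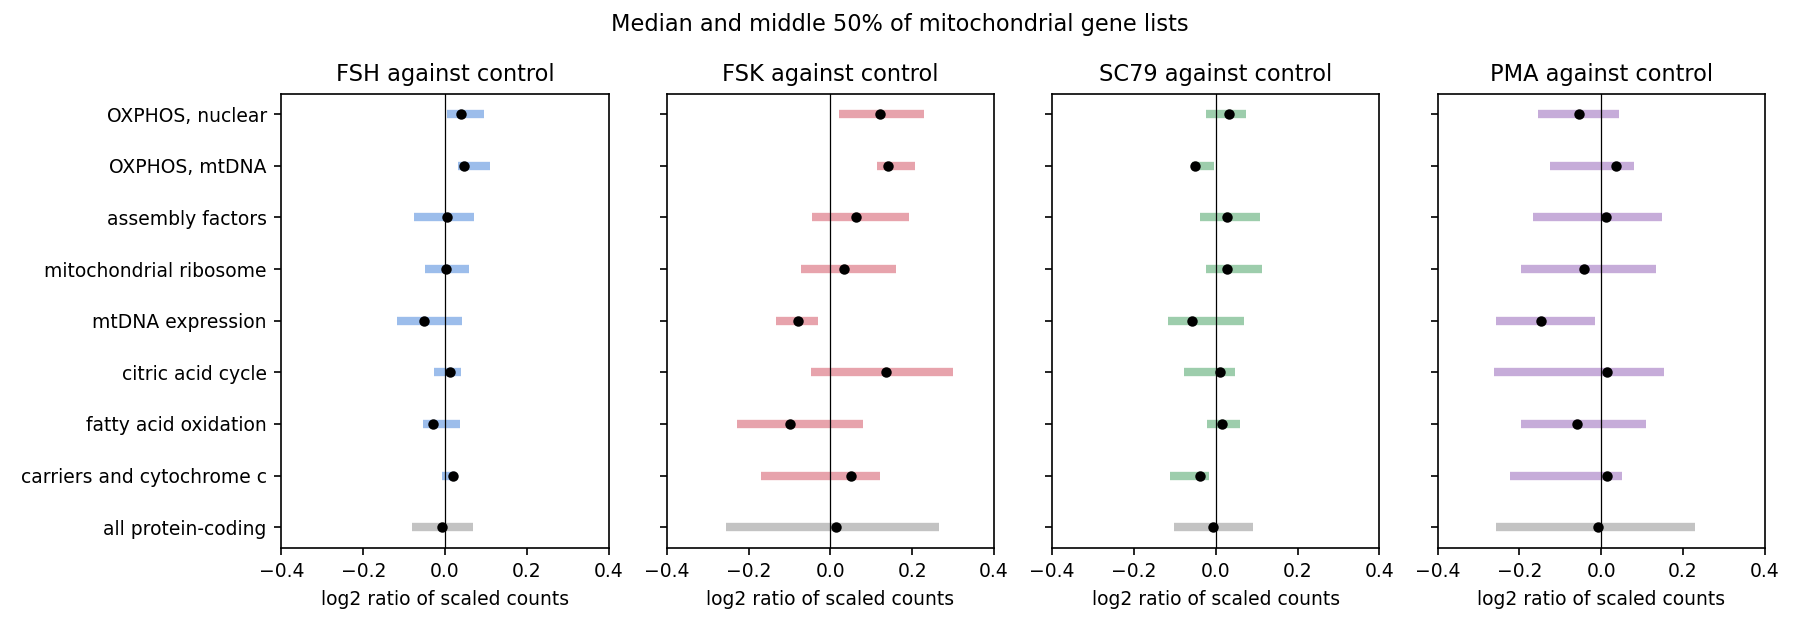
Median (black point) and middle 50% (bar) of log2 ratios to control for 8 mitochondrial gene lists and all protein-coding genes. The nuclear and mitochondrial members lie to the right of 0 with FSK at 0.12 and 0.14, while the median of genes for mitochondrial genome expression lies to the left of 0 in all 4 comparisons.

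In the citric acid cycle, which feeds electrons to complexes I and II, single genes lay farther from control than any of the 91 countable members. Past 1.2-fold, 5 of 17 genes were higher with FSK (29.4%, against 23.9% of all genes) and 3 lower (17.6%, against 23.8%). With PMA 3 were higher (17.6%, against 21.1%) and 4 lower (23.5%, against 23.4%), so the shares of this list lay near the background. PC, which makes oxaloacetate from pyruvate, had 1730 scaled counts in FSH, 4888 in FSK, 1639 in SC79, 2440 in PMA and 1422 in control cells, 3.44-fold with FSK [3.24 to 3.64]. IDH2, the NADP-linked isocitrate dehydrogenase, had 1488 in FSH, 847 in FSK, 1377 in SC79, 732 in PMA and 1494 scaled counts in control cells. It was 0.567-fold with FSK [0.521 to 0.617] and 0.490-fold with PMA [0.449 to 0.535]. IDH3A, of the NAD-linked enzyme, was 1.33-fold with FSK [1.25 to 1.42], and citrate synthase CS was 0.736-fold with FSK [0.714 to 0.760] and 0.750-fold with PMA [0.728 to 0.773].

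Genes most like the members in pattern were taken from 9718 other protein-coding genes with a mean of at least 500 scaled counts, by the mean absolute difference in log2 ratio over the 4 treatments. SRPX2, ZNF629, GRHPR, NLRP2 and KIAA0141 lay nearest the mean nuclear profile, with differences of 0.01 to 0.02. RAB5B, FTO, SEC61B, OST4 and GRHPR lay nearest the mean mitochondrial profile, also at 0.01 to 0.02. The profiles are flat and rest on 5 libraries, so likeness here is mostly closeness to control.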

How the data were processed

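Polyadenylated RNA of 5 pooled KGN libraries was sequenced, with Trimmomatic, kallisto and edgeR listed, but no versions, per the submitters' processing notes. Neither the build nor the index behind them is given in the sources used here. The authors deposited estimated counts per transcript and a normalized signal, which was tested to equal those counts times 1 constant per library (0.934 to 1.03). The authors also deposited log2 fold changes with p-values per transcript.

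Estimated counts were summed per gene name, leaving out 303 transcripts with no name (0.0535% to 0.0680% of counts), rounded, and scaled with TMM factors from edgeR 4.0.16 in R 4.3.3. Ratios are log2(scaled count + 1), a scale that understates changes of low genes, and folds are given as scaled counts over scaled counts. A gene was counted past a fold when its higher library had at least 100 scaled counts. Levels per kb use GENCODE 29 transcript lengths. The share of a gene's 31-base words found in no other gene was computed from the same transcripts. Intervals are exact conditional binomial (Clopper-Pearson), 95%; PCR reads lacking molecular identifiers may repeat a molecule, so they cover counting error alone. Ratio and interval code was tested on simulated data.

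The members, lists and rules were chosen with earlier results of these data known. The gene contents of the lists of assembly factors, ribosomal proteins, citric acid cycle and fatty acid oxidation were written after the files had been opened. Members named are all mitochondrial genes, the isoform pairs, the SDH genes, the 2 highest and 2 lowest ratios per complex and treatment, and any 1.5-fold or more from control. Genes named beyond these, list genes, the length split, sums with overlapping partners, the own-word alternative, the second motif count and the printed promoters were chosen after values were seen. Alternatives were DESeq2 1.42.0 size factors, totals, other minima, another pseudocount and protein_coding transcripts. With 1 library per group, no p-value was computed. The versions used were Python 3.11.15, scipy 1.17.1, pandas 2.3.3, numpy 2.4.6 and, for plots, matplotlib 3.10.9.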

Additional observations from a re-analysis of the deposited data

How the results depend on the processing

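The 24 medians and counts of members were recomputed under the alternatives set out for them and 1 added after the data were seen. All 24 kept their place under DESeq2 size factors, TMM without the mitochondrial genes, no minimum mean and a minimum mean of 100, as did the 16 medians with a pseudocount of 5. A median counts as moved when it shifts by more than the median half-width of the members' counting intervals, and a count when it shifts by over 1.5 times. Scaling by totals moved 8: nuclear members lower with PMA became 3, the PMA against FSK medians became -0.0722 (nuclear) and -0.11 (mitochondrial), and the mitochondrial medians became 0.12 with FSK, -0.0283 with SC79, 0.10 with PMA, 0.0652 for FSK against FSH and 0.0430 for PMA against SC79. The nuclear PMA median, -0.05, became 0.01, within that half-width but of the other sign. Protein_coding transcripts alone, and equally no minimum in the higher library, gave 3 higher and 1 lower with FSH, 1 lower with FSK and 1 higher with SC79. Members with at least 80% own words gave 0 higher with FSH and 10 higher with FSK. With protein-coding counts as the denominator, the mitochondrial share was 1.32% in FSH, 1.44% in FSK, 1.29% in SC79, 1.26% in PMA and 1.28% in control cells. The sum of MT-ND4L with MT-ND4 lay at -0.0244 with FSH, but MT-ND4 holds most of its counts, so it cannot test MT-ND4L. Of 236 ratios of single genes, 39 left their counting interval under totals, 23 with protein_coding transcripts alone, 2 with DESeq2 size factors and 83 when set beside the authors' deposited fold change of the top transcript. The causes were not tested, apart from the fewer genes or samples an alternative counts by construction. No paired analysis was possible because each group has 1 library, and for the same reason no library could be left out.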

Other observations

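Some genes that act beside the respiratory chain in the same organelle lay farther from control than its countable subunits. Of 15 fatty acid oxidation genes, 14 had the counts to be placed past 1.2-fold. With FSK 3 of 14 were higher (21.4%, near the 23.9% of all genes) and 2 lower (14.3%, against 23.8%), and with PMA 2 were higher (14.3%, against 21.1%) and 1 lower (7.14%, against 23.4%). ACADVL, the first dehydrogenase for very long chains, had 11656 scaled counts in FSH, 13585 in FSK, 12182 in SC79, 17185 in PMA and 10935 in control cells, 1.57-fold with PMA [1.54 to 1.61]. HADH was 0.590-fold with FSK [0.549 to 0.634] and 0.612-fold with PMA [0.571 to 0.656], and CPT2 was 1.53-fold with FSK [1.41 to 1.65].

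Of 9 genes for cytochrome c and nucleotide carriers, 2 were higher and 2 lower with FSK (22.2% each, near the 23.9% and 23.8% of all genes). With PMA 0 were higher, where 21.1% of all genes were, and 2 were lower (22.2%, near 23.4%). Cytochrome c itself, CYCS, had 4694 scaled counts in FSH, 4778 in FSK, 4041 in SC79, 4775 in PMA and 4611 in control cells. The ADP/ATP carriers lay apart from each other: SLC25A4 was 1.45-fold with FSK [1.36 to 1.56], and SLC25A5 was 0.826-fold with FSK [0.800 to 0.852] and 0.698-fold with PMA [0.676 to 0.721].

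The electron chain that serves steroid synthesis starts at FDXR and passes through FDX1 to CYP11A1. CYP11A1 had 1192 scaled counts in FSH, 12450 in FSK, 970 in SC79, 671 in PMA and 826 in control cells, 15.1-fold with FSK [14.1 to 16.1]. FDX1 was 1.30-fold with FSK [1.22 to 1.38], while FDXR was 0.801-fold with FSK [0.728 to 0.881] and 0.714-fold with PMA [0.648 to 0.786]. Of the 4 genes listed for this chain, 2 lay above and 2 below control with PMA, at log2 ratios from -0.49 to 0.47.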
